A study of Mus musculus with 4 samples.

Results

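Cxcr3 is the receptor on lymphocytes for the interferon-induced chemokines Cxcl9 and Cxcl10, and these 3 genes were chosen by their symbols from the 31053 genes of the count matrices. They were followed in liver mononuclear cells, dissociated and enriched on Percoll, of C57BL/6 mice, 8 to 10 weeks old, profiled by droplet-based 5′ single-cell RNA sequencing in 4 libraries, 1 per condition. The libraries came from untreated mice (Naïve) and from mice that had received concanavalin A, a plant lectin that activates T cells and causes acute hepatitis, followed by vehicle (ConA+Veh), by TCDD (ConA+TCDD) or by FICZ (ConA+FICZ). TCDD and FICZ are ligands of the aryl hydrocarbon receptor (AhR), a ligand-activated transcription factor, and the dose of FICZ is not given in the sources used here. Cells of the mice given ConA were collected 24 hours after the injection, and the number of mice behind each library is not stated.

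Cxcl9 and Cxcl10 are small secreted chemokines that endothelial cells, macrophages and parenchymal cells make when interferon-gamma, released by activated T cells and NK cells, signals through its receptor and the Jak kinases. Both bind Cxcr3, a receptor coupled to inhibitory G proteins that is carried by effector and memory T cells, NK cells, plasmacytoid dendritic cells and some activated B cells, and it guides these cells into inflamed tissue, the liver included. The transcription factor T-bet, encoded by Tbx21, switches Cxcr3 on in lymphocytes, and the peptidase Dpp4 trims the ligands.

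Cxcl9 (ENSMUSG00000029417) and Cxcl10 (ENSMUSG00000034855) are protein-coding neighbours on the minus strand of chromosome 5 of the mm10 assembly, at chr5:92321347-92328079 and chr5:92346638-92348889, with 18558 bases between them. Cxcr3 (ENSMUSG00000050232) lies on the minus strand of the X chromosome at chrX:101731535-101734269. The promoters of both ligands, from 250 bases before to 50 bases after the start site in the RefSeq table for GRCm38.p6, are shown because the ligands are the genes of the 3 that interferon induces and because their sources differed in the cells below. They span chr5:92328030-92328329 and chr5:92348840-92349139, read 5′ to 3′ on the gene's strand, with capitals for matches to 3 motifs searched on both strands.
Cxcl9: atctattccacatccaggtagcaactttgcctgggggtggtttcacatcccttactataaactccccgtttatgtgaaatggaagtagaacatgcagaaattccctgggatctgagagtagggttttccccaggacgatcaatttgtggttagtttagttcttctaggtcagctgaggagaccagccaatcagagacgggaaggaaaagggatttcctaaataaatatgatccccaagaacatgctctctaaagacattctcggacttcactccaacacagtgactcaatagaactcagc
Cxcl10: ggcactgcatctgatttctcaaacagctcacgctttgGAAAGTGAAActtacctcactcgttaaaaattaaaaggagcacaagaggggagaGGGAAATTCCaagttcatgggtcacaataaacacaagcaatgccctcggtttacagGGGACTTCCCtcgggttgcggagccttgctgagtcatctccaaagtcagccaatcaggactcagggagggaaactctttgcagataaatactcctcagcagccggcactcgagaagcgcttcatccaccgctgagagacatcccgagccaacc
The interferon-stimulated response element (GAAA, any 2 bases, then GAAA) matched the Cxcl10 promoter at -213 to -204 from the start site, and 3.44% of the 32851 promoters in the table held a match. The NF-kB motif matched the Cxcl10 promoter in 2 places, at -159 to -150 and at -103 to -94, and 4.51% of all promoters held a match. The matches did not overlap each other, and the gamma-activated sequence (TTCNNNGAA), which 8.3% of all promoters held, was not among the letters of either window. Neither the Cxcl9 window nor the Cxcr3 window held a match to any of the 3 motifs in this form.

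The libraries held 1880 to 2779 cells and 5952445 to 19252211 unique molecular identifiers (UMIs, 1 per captured transcript molecule), with a median of 2161 UMIs per cell in the Naïve library against 3147 to 3984 in the ConA libraries. Cells were assigned to classes by fixed marker genes, and a level is the sum of a gene's UMIs over the cells of a class per 1000000 UMIs of those cells (CPM), given with its exact 95% Poisson interval in brackets. With 1 library per condition no difference could be tested, and intervals cover counting error only. Values without a library name follow the order Naïve, vehicle, TCDD, FICZ. A ratio is the log2 of the CPM of 1 library over another, with the interval of the 2 sums, and is called higher or lower when it is at least 2-fold among genes with at least 30 UMIs over both libraries. Any 2 libraries shared 4 to 15 cell barcodes, and between 77.8% and 100% of the T, B, NK, endothelial, mononuclear phagocyte and neutrophil cells of a library lay in a cluster of the same class.

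Of the 7 endothelial markers, Cdh5 was at 822.3 CPM in the Naïve library and at 550.1 to 818.5 CPM after ConA, and Egfl7 at 1629.8 and at 518.6 to 1323.3 CPM. Both were below the Naïve level in every ConA library, Egfl7 by at least 2-fold in ConA+TCDD alone. The other 5 were at least 2-fold lower in all ConA libraries, with Kdr at 1452.0 CPM in Naïve and 385.8 in ConA+Veh, Ptprb at 1681.7 and 313.7, and Eng at 2059.5 and 804.1. The sinusoidal markers Stab2 and Clec4g stood at 1496.5 and 2718.9 CPM in the Naïve library and at 129.8 and 7.21 CPM in ConA+Veh. The Naïve cells fell mainly in a cluster led by Clec4g and the ConA cells in a cluster led by Fabp4, Tinagl1 and Timp3. The mononuclear phagocytes carried Ly6c2 (689.0 to 1366.4 CPM) and C1qb (1282.0 to 3938.4 CPM), whereas the Kupffer cell markers Clec4f, Vsig4, Timd4 and Marco were at 0 in the Naïve and ConA+FICZ cells and at no more than 8.92 CPM elsewhere. They are therefore called mononuclear phagocytes. The Naïve cells lay mainly in a cluster led by Cst3 and Lyz2, and the ConA cells in a cluster led by the C1q genes.

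Cxcl9 RNA lay mostly in endothelial cells in the Naïve and ConA+Veh libraries, and endothelial cells of the ConA+Veh library held 2.86-fold more of it than those of the Naïve library. The endothelial cells of these libraries lay mainly in different clusters, so the fold need not compare like cells. In the ConA+FICZ library, cells full of hepatocyte transcripts held 33.3% of the Cxcl9 UMIs, beside endothelial cells and mononuclear phagocytes. There were 180 such cells in that library against 5 in ConA+Veh, where 4 of the 5 also held Cxcl9. Mononuclear phagocytes held Cxcl9 at like levels in the Naïve and ConA+Veh libraries, but nearly all Naïve UMIs came from 1 cell. The plot of the classes that held the UMIs of each gene gives these sources side by side.

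**Figure D1:**
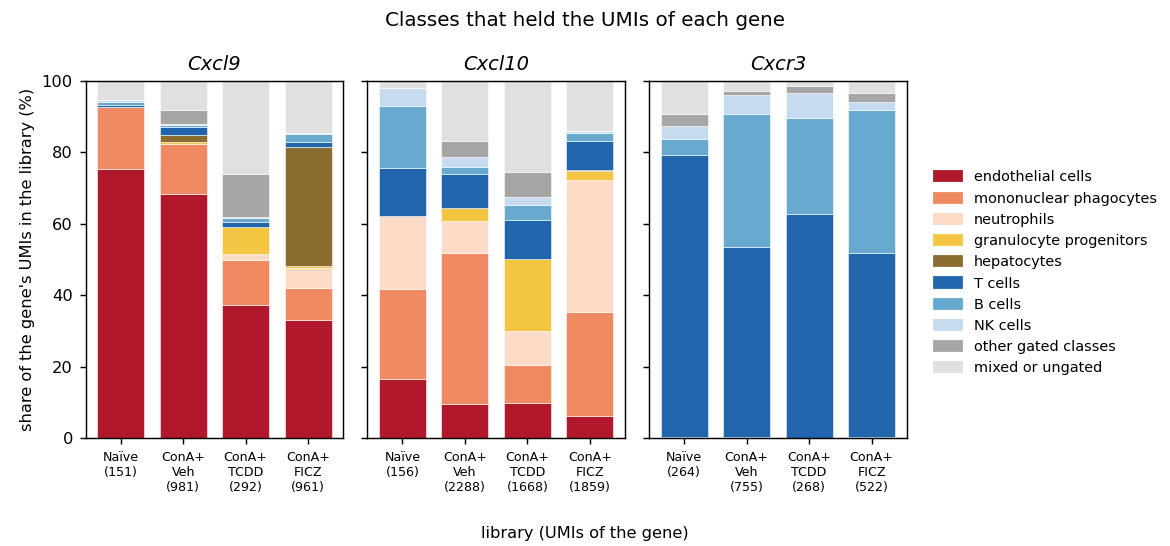
Share of all UMIs of Cxcl9, Cxcl10 and Cxcr3 in a library (%, vertical axis) that lay in cells of each marker-gated class, 1 bar per library with the number of UMIs in brackets. Endothelial cells held 75.5% of Cxcl9 in the Naïve library and 33.2% in the ConA+FICZ library, where hepatocyte-gated cells held 33.3%, while T and B cells together held most of Cxcr3 in all 4 libraries.

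A total of 151 UMIs of Cxcl9 were counted in the Naïve library, with 981, 292 and 961 after ConA with vehicle, TCDD and FICZ. Endothelial cells held 75.5% of them in the Naïve library, 68.3% in ConA+Veh, 37.3% in ConA+TCDD and 33.2% in ConA+FICZ. The libraries held 42, 69, 9 and 43 endothelial cells. Mononuclear phagocytes held 17.2%, 14.0%, 12.7% and 8.95% in the same order. In the ConA+TCDD library a further 12.3% lay in cells with markers of several classes and 13.7% in cells that met no gate.

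In endothelial cells the level of Cxcl9 was 844.6 CPM [696.7, 1014.6] in the Naïve library, 2415.8 [2236.3, 2605.9] in ConA+Veh, 1713.1 [1406.6, 2066.5] in ConA+TCDD and 1510.7 [1349.4, 1685.9] in ConA+FICZ. The 3 ConA libraries were thus above the Naïve library, and the intervals of ConA+TCDD and ConA+FICZ overlapped. The ratio of ConA+Veh over Naïve was 1.52 on the log2 scale [1.23, 1.82], and 11.9% of the 2403 genes measured in this class were at least 2-fold higher. A single cell held 57 of the 114 Naïve UMIs, and without the richest cell of each library the ratio was 2.18. After each cell was thinned to 1000 UMIs, 20.5% of the Naïve endothelial cells held a Cxcl9 UMI, against 61.3% in ConA+Veh, 66.7% in ConA+TCDD and 57.6% in ConA+FICZ. Before thinning these shares were 31%, 72.5%, 88.9% and 74.4%. T cells, which should lack Cxcl9, held a UMI in at most 0.203% of thinned cells.

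The ConA+TCDD and ConA+FICZ libraries were both set against the same ConA+Veh library. The log2 ratio of Cxcl9 in endothelial cells was -0.50 [-0.80, -0.20] for ConA+TCDD over ConA+Veh and -0.68 [-0.87, -0.48] for ConA+FICZ over ConA+Veh, neither of them 2-fold. Only 9 endothelial cells were captured in the ConA+TCDD library, 1 of which held 45.9% of the UMIs, and the sign of its ratio turned under 5 of 9 alternative settings (0.07 to 0.89). The value for ConA+FICZ kept its sign but came to between -0.18 and -0.06 under 5 of the alternatives.

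In mononuclear phagocytes Cxcl9 was at 76.6 CPM [50, 112.2] in the Naïve library, 76.4 [64.2, 90.3] in ConA+Veh, 122.6 [86.3, 168.9] in ConA+TCDD and 60.7 [48.6, 75.0] in ConA+FICZ. In the Naïve library 23 of the 26 UMIs lay in 1 of 79 cells, and without that cell the level was 8.93 CPM. The ratio of ConA+Veh over Naïve was accordingly -0.00 [-0.62, 0.66] with all cells and 2.91 without the richest cell of each library. The ratio for ConA+TCDD over ConA+Veh was 0.68 [0.12, 1.21] over 40 cells, 1 of which held 40.5% of the UMIs. Without the richest cell of each library the levels were 77.5 CPM in ConA+TCDD and 67.1 in ConA+Veh. With cells thinned to 1000 UMIs they were 184.2 and 177.6 CPM, on 7 and 38 UMIs. ConA+FICZ over ConA+Veh gave a ratio of -0.33 [-0.74, 0.07]. None of the 3 ratios reached 2-fold with all cells.

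Hepatocyte-gated cells, defined by genes such as Alb, Apoa1 and Fabp1, numbered 180 in the ConA+FICZ library and 2, 5 and 0 in the Naïve, ConA+Veh and ConA+TCDD libraries. These barcodes were shallow, with a median of 958 UMIs, and their median share of mitochondrial UMIs was 0.0%, against 6.28% and 6.46% in those of Naïve and ConA+Veh. The part of this in the result was not tested. They held 320 of the 961 Cxcl9 UMIs of the ConA+FICZ library, a level of 1144.6 CPM [1022.6, 1277.1]. Cxcl9 was found in 126 of the 180 cells. The 5 such cells of the ConA+Veh library stood at 1999.8 CPM [1221.5, 3088.5].

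Hepatocyte transcripts were also present at a low level in other cells, and more so in the ConA+FICZ library, where their summed level in B cells was 154.5 CPM against 1.84 in ConA+TCDD, 50.9 in ConA+Veh and 79.4 in the Naïve library. For every 1000 hepatocyte-marker UMIs, the ConA+FICZ library held 16.9 Cxcl9 UMIs in hepatocyte-gated cells, 21 in T cells and 32.5 in B cells. The same figure was 41.1 in NK cells, 151.9 in neutrophils, 682.5 in mononuclear phagocytes and 1644.3 in endothelial cells. In B cells Cxcl9 stood at 0.373 CPM in Naïve, 1.06 in ConA+Veh, 1.38 in ConA+TCDD and 5.02 in ConA+FICZ. It was highest in ConA+FICZ, as the hepatocyte transcripts were. From Naïve through ConA+Veh to ConA+TCDD those transcripts ran the other way, where Cxcl9 rested on 1 to 5 UMIs. Their part in the ConA+FICZ value was not tested.

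Neutrophils held no Cxcl9 UMI in the Naïve library (24 cells) or in ConA+Veh (107 cells), which allows up to 3 counts in each, and they held 5 UMIs in ConA+TCDD and 53 in ConA+FICZ. In ConA+FICZ the level was 75.5 CPM [56.6, 98.7], at least 7.49-fold higher than the value of 3 counts in ConA+Veh, while 8.64% of the genes measured in neutrophils were at least 2-fold higher in this comparison. A single cell held 36 of those 53 UMIs, and the level without it was 24.3 CPM. Hepatocyte markers stood at 497.1 CPM in these neutrophils against 57.1 in ConA+Veh, and their part in the result was not tested. Among the gated classes of the ConA+Veh library with more than 15 cells, Cxcl9 was highest in endothelial cells, followed by mononuclear phagocytes, and the intervals of these classes overlapped neither each other nor any lower class. Plasmacytoid dendritic cells at 11.1 CPM on 1 UMI, granulocyte progenitors at 8.23 CPM [3.31, 16.9], T cells at 2.38 CPM, NK cells at 2.33 CPM and B cells at 1.06 CPM came next, each with an interval that overlapped that of its neighbour. Some smaller classes stood above the phagocytes, with 5 hepatocyte-gated cells at 1999.8 CPM [1221.5, 3088.5] and 10 stellate cells at 450.4 [301.6, 646.8]. In the stellate cells 23 of 29 UMIs lay in 1 cell. The 15 conventional dendritic cells were at 54.8 CPM [23.6, 107.9], which overlapped the phagocytes. Bile duct and plasma cells were at 8.49 and 14.3 CPM, on 1 UMI each.

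Cxcl10 came from more classes than Cxcl9, and mononuclear phagocytes held the largest share of its UMIs in ConA+Veh and neutrophils in ConA+FICZ. By level among the gated classes, endothelial cells at 789.6 CPM and neutrophils at 682.3 stood above the phagocytes at 541.0 in ConA+Veh. In these neutrophils 37.9% of the UMIs lay in 1 cell. Cxcl10 was at least 2-fold higher in ConA+Veh than in Naïve cells among mononuclear phagocytes, endothelial cells, T cells and NK cells, and within 2-fold among neutrophils and B cells. Its intervals overlapped within the T cell clusters that both libraries shared. In the ConA+TCDD library it was at least 2-fold higher than in ConA+Veh among granulocyte progenitors, B cells, endothelial cells and neutrophils, although in the last 2 classes 1 cell held a large part of the UMIs. Smaller sources also differed there. Stellate cells, 10 in each library, were at 77.6 CPM in ConA+Veh and 635.8 in ConA+TCDD, a log2 ratio of 3.03 [1.71, 4.72], and erythroid cells were at 13.0 and 267.6 CPM, with 25 of the 33 ConA+TCDD UMIs in 1 cell.

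The libraries held 156, 2288, 1668 and 1859 UMIs of Cxcl10. Mononuclear phagocytes held 25.0%, 42.4%, 10.8% and 29.1% of them, and neutrophils 20.5%, 8.87%, 9.53% and 36.9%. Granulocyte progenitors held 20% in the ConA+TCDD library against 3.54% in ConA+Veh and 2.58% in ConA+FICZ. Cells that met no gate held 23.6% in ConA+TCDD, the largest share there, 13.2% in ConA+Veh and 9.14% in ConA+FICZ. Their level was 570.4 CPM [508.0, 638.4] in ConA+Veh, 441.2 [398.7, 487.1] in ConA+TCDD and 362.8 [310.3, 421.6] in ConA+FICZ. A single cell held 43.6% of the ConA+Veh UMIs of these ungated cells. The libraries held 79, 230, 40 and 212 mononuclear phagocytes and 24, 107, 47 and 270 neutrophils, and there were 44, 37 and 24 granulocyte progenitors after ConA.

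**Figure D2:**
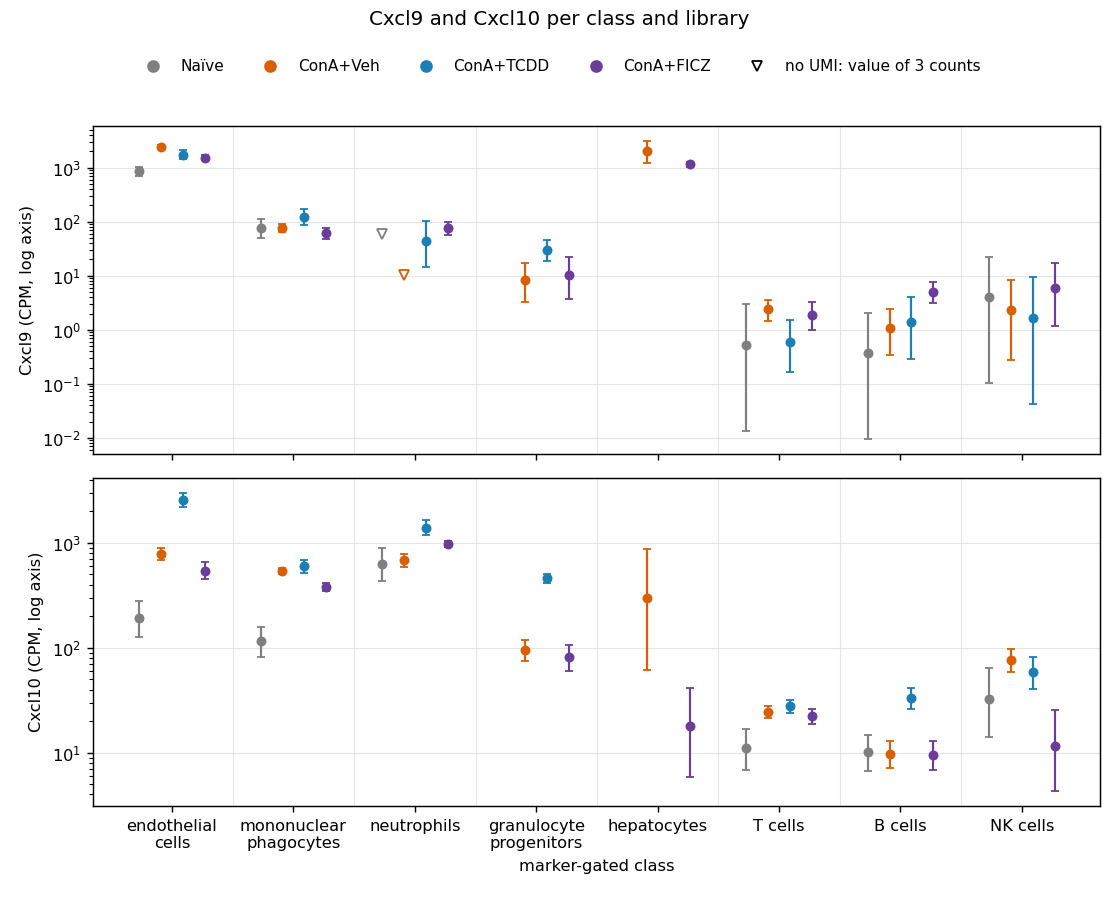
Level of Cxcl9 (upper panel) and Cxcl10 (lower panel) in CPM on a log axis for each class (horizontal axis) and library (colour), with exact 95% Poisson intervals as bars and open triangles at the value of 3 counts where no UMI was found; granulocyte progenitors and hepatocytes are left out where a library held 2 or fewer. Endothelial cells stand highest for Cxcl9 in the Naïve library at 844.6 CPM, and the ConA+TCDD library stands above the other libraries for Cxcl10 in granulocyte progenitors at 458.6 CPM.

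In mononuclear phagocytes Cxcl10 was at 114.9 CPM [81.7, 157.0] in the Naïve library, 541.0 [507.5, 576.1] in ConA+Veh, 596.3 [512.3, 690.0] in ConA+TCDD and 381.8 [350.3, 415.4] in ConA+FICZ. The 3 ConA libraries were above the Naïve library, and the intervals of ConA+Veh and ConA+TCDD overlapped. ConA+Veh over Naïve gave a log2 ratio of 2.24 [1.77, 2.74], where 10.2% of the 6325 genes measured were at least 2-fold higher and 110 of them, Cxcl10 included, were as high as Cxcl10. A single cell held 21 of the 39 Naïve UMIs, and the ratio without the richest cells was 3.11. The 40 ConA+TCDD cells over ConA+Veh gave 0.14 [-0.10, 0.37], which was -0.44 without the richest cells, and ConA+FICZ over ConA+Veh gave -0.50 [-0.66, -0.35]. After thinning, 5.48% of the Naïve cells held a UMI, against 21.5%, 26.3% and 16% in ConA+Veh, ConA+TCDD and ConA+FICZ, and the unthinned shares were 11.4%, 37.8%, 42.5% and 32.1%.

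The phagocytes were then split by the complement genes C1qa, C1qb and C1qc, which mark macrophages. Among cells with UMIs of at least 2 of these genes, Cxcl10 was at 26.7 CPM [7.28, 68.5] in 15 Naïve cells, 604.8 [565.6, 646.0] in ConA+Veh, 498.1 [391.1, 625.4] in ConA+TCDD and 404.9 [370.0, 442.2] in ConA+FICZ. Among the other phagocytes it was at 184.3 [128.3, 256.3], 257.8 [205.9, 318.8], 691.4 [566.0, 836.2] and 238.8 [175.5, 317.6] in the same order. Phagocytes with C1q genes thus stood above the others in ConA+Veh and ConA+FICZ. In the Naïve library 21 of the 35 UMIs of the phagocytes without C1q genes came from 1 of 64 cells. In the ConA+TCDD library 82 of the 106 UMIs of the phagocytes without C1q genes came from 1 of 16 cells.

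In endothelial cells Cxcl10 was at 192.6 CPM [125.8, 282.2] in the Naïve library, 789.6 [688.5, 901.4] in ConA+Veh, 2561.7 [2183.5, 2986.6] in ConA+TCDD and 544.6 [449.6, 653.7] in ConA+FICZ. None of these intervals overlapped. The log2 ratio of ConA+Veh over Naïve was 2.04 [1.45, 2.68], again between cells that lay mainly in different clusters. The ratio of ConA+TCDD over ConA+Veh was 1.70 [1.40, 2.0], where 4.21% of the genes measured were at least 2-fold higher. It rested on 6 of 9 cells, 1 of which held 36.8% of the UMIs. ConA+FICZ over ConA+Veh gave -0.54 [-0.87, -0.20], with 41.7% of the ConA+FICZ UMIs in 1 cell.

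Neutrophils, which are recruited early to the injured liver, held Cxcl10 in all 4 libraries, at 631.4 CPM [431.9, 891.4] in Naïve, 682.3 [591.7, 782.9] in ConA+Veh, 1401.2 [1191.9, 1636.7] in ConA+TCDD and 977.2 [905.4, 1053.1] in ConA+FICZ. The Naïve and ConA+Veh intervals overlapped, and their log2 ratio was 0.11 [-0.43, 0.70]. ConA+TCDD over ConA+Veh gave 1.04 [0.73, 1.34], where 4.49% of the genes measured were at least 2-fold higher. However, 103 of the 159 UMIs of ConA+TCDD lay in 1 of 47 cells, the level without it was 526.8 CPM, and the ratio turned its sign under 4 alternatives (-1.19 to -0.52). ConA+FICZ over ConA+Veh gave 0.52 [0.29, 0.75], with UMIs in 75 of 270 cells.

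Granulocyte progenitors, marked by Prtn3, Mpo, Elane and Ctsg, numbered 44, 37 and 24 in ConA+Veh, ConA+TCDD and ConA+FICZ, and 2 in the Naïve library. Their Cxcl10 level was 95.2 CPM [75.6, 118.3] in ConA+Veh, 458.6 [410.7, 510.5] in ConA+TCDD and 80.9 [59.7, 107.3] in ConA+FICZ. The ConA+TCDD library stood apart from the other 2, whose intervals overlapped. In the cluster led by Prtn3 and Elane the levels were higher, at 282.7 CPM [253.2, 314.6] in 64 ConA+Veh cells and 752.3 [699.2, 808.4] in 60 ConA+TCDD cells. The 32 ConA+FICZ cells of that cluster were at 114.6 CPM [91.0, 142.4], so there none of the intervals overlapped. Ratios of this class were not among those given alternative settings. The log2 ratio of ConA+TCDD over ConA+Veh was 2.27 [1.91, 2.64], where 2.3% of the 5262 genes measured were at least 2-fold higher and 15 of them, Cxcl10 included, were as high. The UMIs came from 25 of 37 cells in ConA+TCDD and from 17 of 44 in ConA+Veh, and the richest ConA+TCDD cell held 20.4%. Cxcl9 moved from 8.23 CPM in ConA+Veh to 30.2 in ConA+TCDD in these cells, but its 29 UMIs over both libraries were too few for the 2-fold rule.

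Lymphocytes held Cxcl10 at lower levels. In T cells it was at 11.1 CPM in the Naïve library, 24.4 in ConA+Veh, 27.6 in ConA+TCDD and 22.2 in ConA+FICZ. The log2 ratio of ConA+Veh over Naïve was 1.14 [0.49, 1.86], where 8.88% of the genes measured in T cells were at least 2-fold higher. The Naïve level rested on 21 UMIs in 6 cells, with 9 UMIs in 1 cell. In the shared T cell cluster led by Cd7, Xcl1 and Ccl5, Cxcl10 was at 70.7 CPM [43.2, 109.3] in Naïve and 66.3 [50.6, 85.3] in ConA+Veh. In the shared cluster led by Tnfrsf4 and Izumo1r it was at 12.7 CPM [3.47, 32.6] and 24.3 [18.4, 31.6], so the intervals overlapped in both. Clusters made up mainly of Naïve T cells stood at 1.28 and 2.38 CPM. In NK cells Cxcl10 was at 32.4, 75.7, 58.6 and 11.7 CPM from Naïve to ConA+FICZ. ConA+Veh over Naïve gave 1.22 [0.16, 2.50] in NK cells, where 8.81% of the genes measured were at least 2-fold higher. ConA+FICZ over ConA+Veh gave -2.70 [-4.20, -1.50] in NK cells, on 6 against 65 UMIs, where 3.15% of the genes measured were at least 2-fold lower. In the NK cluster, used in place of the gate, the levels were 66.8 CPM [51.7, 85.0] in ConA+Veh and 49.4 [34.0, 69.4] in ConA+FICZ. These intervals overlapped, so the size of the ratio depended on how NK cells were defined. Of the 35 ConA+TCDD UMIs in NK-gated cells, 21 lay in 1 cell.

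In B cells Cxcl10 was at 10.1 CPM in the Naïve library, 9.71 in ConA+Veh, 33.2 in ConA+TCDD and 9.59 in ConA+FICZ. The ConA+TCDD library alone stood apart, with a log2 ratio over ConA+Veh of 1.77 [1.22, 2.34], where 1.2% of the 8435 genes measured were at least 2-fold higher and 6 of them, Cxcl10 included, were as high. A cluster of B cells led by Map4k1, Pkib and the costimulatory gene Cd86 held 164 ConA+TCDD cells with Cxcl10 at 98.1 CPM, 56 ConA+Veh cells at 50.8 CPM and 111 ConA+FICZ cells at 64.7 CPM.

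Cxcl9 and Cxcl10 were then counted in the same cells. In the ConA+Veh library 40 of 69 endothelial cells held UMIs of both ligands, 10 only Cxcl9, 7 only Cxcl10 and 12 neither. The corresponding numbers were 6, 7, 4 and 25 of 42 Naïve cells, 6, 2, 0 and 1 of 9 ConA+TCDD cells and 14, 18, 3 and 8 of 43 ConA+FICZ cells. Endothelial cells with both ligands were therefore the most frequent kind in ConA+Veh, and endothelial cells with Cxcl9 only in ConA+FICZ. Among mononuclear phagocytes, 20 of 230 ConA+Veh cells held both ligands, 17 only Cxcl9 and 67 only Cxcl10, and in ConA+FICZ the numbers were 8, 11 and 60 of 212. Neutrophils of the ConA+FICZ library held Cxcl10 without Cxcl9 in 67 of 270 cells and both in 8. The hepatocyte-gated cells of that library showed the opposite, with Cxcl9 only in 122 of 180 cells, both in 4 and Cxcl10 only in 0. These counts depend on depth, which both genes share in a cell.

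**Figure D3:**
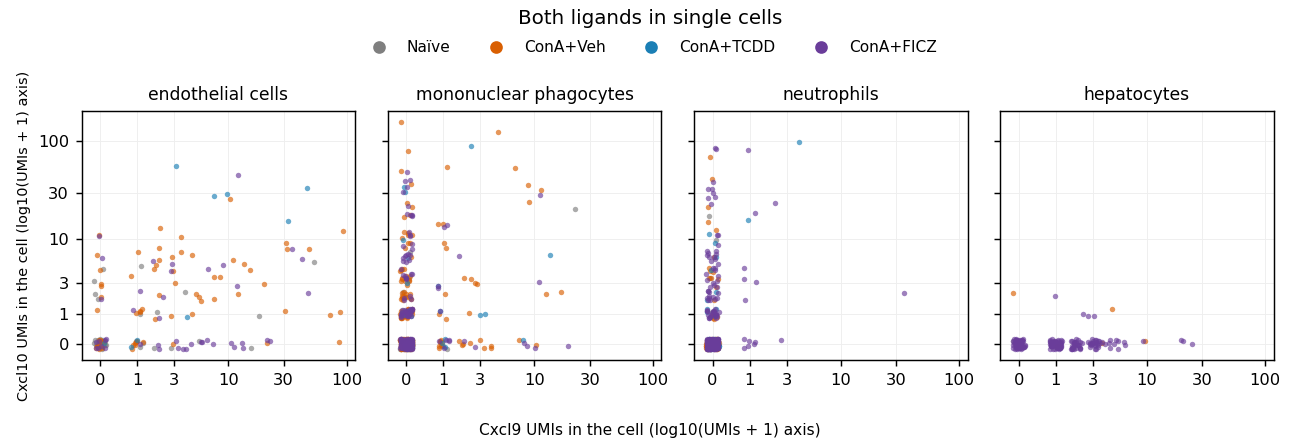
UMIs of Cxcl9 (horizontal axis) and Cxcl10 (vertical axis) in single cells of 4 classes, both on a log10(UMIs + 1) axis with small random shifts so that points do not cover each other, coloured by library. Endothelial cells spread along both axes, neutrophils lie mostly along the Cxcl10 axis and the hepatocyte-gated cells of ConA+FICZ along the Cxcl9 axis, 122 of 180 with Cxcl9 only.

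Cxcr3, the receptor, lay mostly in T and B cells. Its level in T cells was at least 2-fold lower in each ConA library than in the Naïve library, and in B cells it was 13.3-fold higher in ConA+Veh than in the Naïve library. Among the ConA libraries, ConA+TCDD had the lowest level in T cells. In B cells ConA+TCDD was lowest before thinning, at 33.2 CPM [26.0, 41.8] against 47.9 [41.7, 54.9] in ConA+FICZ, and these intervals overlapped. With B cells thinned to 1000 UMIs, ConA+FICZ was at 21.2 CPM on 16 UMIs and ConA+TCDD at 26.5 on 10. Thinned to 500 UMIs they were at 22.7 CPM on 9 UMIs and 19.3 on 4. The order of these libraries in thinned B cells was therefore not settled.

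**Figure D4:**
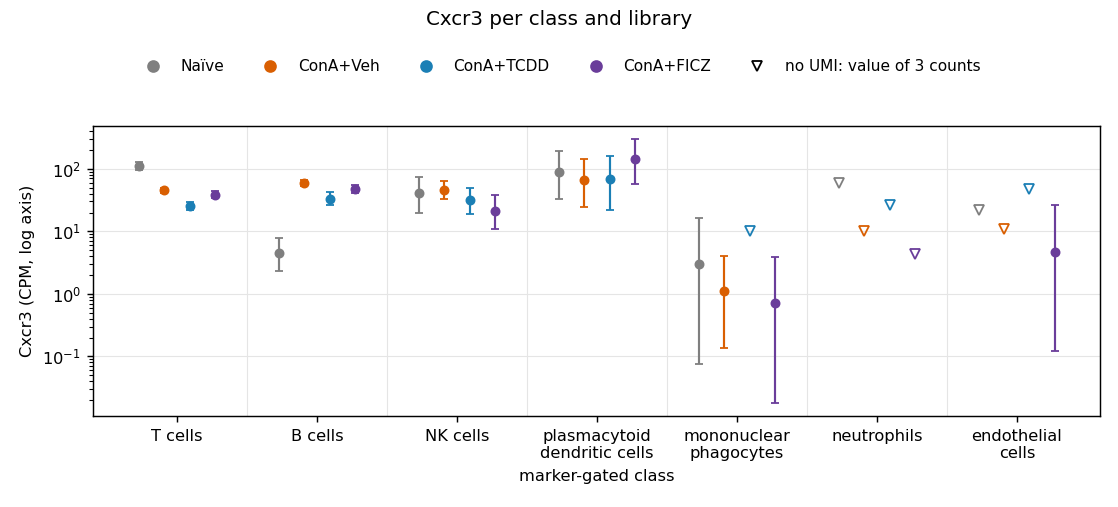
Level of Cxcr3 in CPM on a log axis for each class (horizontal axis) and library (colour), with exact 95% Poisson intervals as bars and open triangles at the value of 3 counts where no UMI was found. T cells fall from 110.2 CPM in Naïve to 25.4 CPM in ConA+TCDD, B cells climb from 4.48 CPM in Naïve to 59.5 CPM in ConA+Veh, and no neutrophil held a UMI.

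The libraries held 264, 755, 268 and 522 UMIs of Cxcr3. T cells held 78.8%, 53.1%, 62.7% and 51.3% of them, and B cells 4.55%, 37.4%, 26.9% and 40.2%. NK cells held between 2.11% and 7.09%. Neutrophils held no Cxcr3 UMI in any library, up to 270 cells, and mononuclear phagocytes stood at no more than 2.95 CPM. After thinning no mononuclear phagocyte, neutrophil or endothelial cell held a UMI, which allows a share of up to 1.4% in the 214 phagocytes and 4.84% in the 62 endothelial cells of ConA+Veh.

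In T cells Cxcr3 was at 110.2 CPM [95.7, 126.2] in the Naïve library, 45.4 [41.0, 50] in ConA+Veh, 25.4 [21.7, 29.5] in ConA+TCDD and 38.7 [34.2, 43.6] in ConA+FICZ. The intervals of ConA+Veh and ConA+FICZ overlapped and the others did not. ConA+Veh over Naïve gave a log2 ratio of -1.28 [-1.53, -1.03], where 14.6% of the 9517 genes measured in T cells were at least 2-fold lower and the median of all genes was -0.15. As a mean over cells it was -0.78, within 2-fold. ConA+TCDD over ConA+Veh gave -0.84 [-1.11, -0.58], and 97.7% of the genes measured had the same or a higher ratio. ConA+FICZ over ConA+Veh gave -0.23, its interval running from -0.46 to just under 0, and 0.01 without cells rich in mitochondrial UMIs. After thinning, 11.2% of T cells held a UMI in Naïve, 6.61% in ConA+Veh, 2.42% in ConA+TCDD and 5.73% in ConA+FICZ. Without thinning the shares ran 21.5%, 29.9%, 16.1% and 25.1%, and T cells of the ConA libraries held a median of 6086 to 8298 UMIs against 2659.5 in Naïve.

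The T cells of the Naïve library lay partly in clusters of their own. A cluster led by Cxcr6, a receptor of liver-resident T cells, with Trbv13-2 and Tcrg-C1 held 165 Naïve cells with Cxcr3 at 357.7 CPM, and a cluster led by Il7r, Lef1 and Tcf7, genes of resting T cells, held 270 Naïve cells with Cxcr3 at 15.3 CPM. In a cluster led by Cd7, Xcl1 and Ccl5 that all libraries shared, Cxcr3 was at 130.9 CPM [92.1, 180.4] in 127 Naïve cells and at 85.1 [67.1, 106.3] in 171 ConA+Veh cells. In a shared cluster led by Tnfrsf4 and Izumo1r it was at 41.4 CPM [22.0, 70.7] in 31 Naïve cells and at 25.6 [19.5, 33.0] in 183 ConA+Veh cells, so the intervals overlapped in both clusters. Among T cells with a Cxcr6 UMI, Cxcr3 was at 265.0 CPM [223.7, 311.6] in Naïve, 63.7 [53.4, 75.4] in ConA+Veh, 45.4 [34.4, 58.8] in ConA+TCDD and 51.5 [40.0, 65.3] in ConA+FICZ. Among T cells without a Cxcr6 UMI it was at 46.4 [35.6, 59.4], 39.6 [35.0, 44.7], 20.7 [17.0, 24.9] and 35.7 [30.9, 41.0]. ConA+Veh over Naïve thus gave -2.06 [-2.41, -1.71] in the former and -0.23 [-0.63, 0.20] in the latter. ConA+TCDD over ConA+Veh gave -0.49 [-0.96, -0.03] in the former and -0.94 [-1.27, -0.61] in the latter. The cells with a Cxcr6 UMI differed in depth, with 550966 UMIs in 148 Naïve cells and 2103505 in 149 ConA+Veh cells. A Cxcr6 UMI is found more readily in a deeper cell, so the libraries may not hold like cells in this set. The part of this in the ratios was not tested.

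Split by coreceptor, T cells with CD8 UMIs and no Cd4 UMI held Cxcr3 at 50.3 CPM in Naïve, 38.4 in ConA+Veh, 21 in ConA+TCDD and 29.2 in ConA+FICZ. T cells with a Cd4 UMI and no CD8 UMI held it at 129.8, 49.8, 34.6 and 51.4 CPM, and T cells with neither at 166.7, 76.9, 30.4 and 51.9 CPM. ConA+TCDD was the lowest library in each of the 3 sets, with log2 ratios over ConA+Veh of -0.87 [-1.28, -0.48], -0.53 [-1.14, 0.06] and -1.34 [-1.83, -0.86]. Cycling T cells, with proliferation genes such as Mki67, showed a ratio of -0.68 [-1.0, -0.36], and T cells that were not cycling -1.15 [-1.66, -0.66]. By cluster, ConA+TCDD stood apart from ConA+Veh in the Tnfrsf4 cluster, at 11.4 CPM [7.66, 16.4] against 25.6 [19.5, 33.0]. It also stood apart in a cluster led by Cd8a and Cd8b1, at 13.4 [9.42, 18.4] against 29.2 [24.4, 34.6]. The intervals overlapped in the Cd7 cluster, at 75.8 [55.5, 101.1] against 85.1 [67.1, 106.3]. They overlapped too in clusters led by Ly6c1 and Rora (49.2 against 64.5 CPM) and by Gm26917 and Kcnq1ot1 (100.4 against 154.4 CPM). T cells with a Foxp3 UMI, a mark of regulatory T cells, numbered 4 to 23 per library and held 0, 10, 2 and 13 UMIs of Cxcr3, too few for a comparison.

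**Figure D5:**
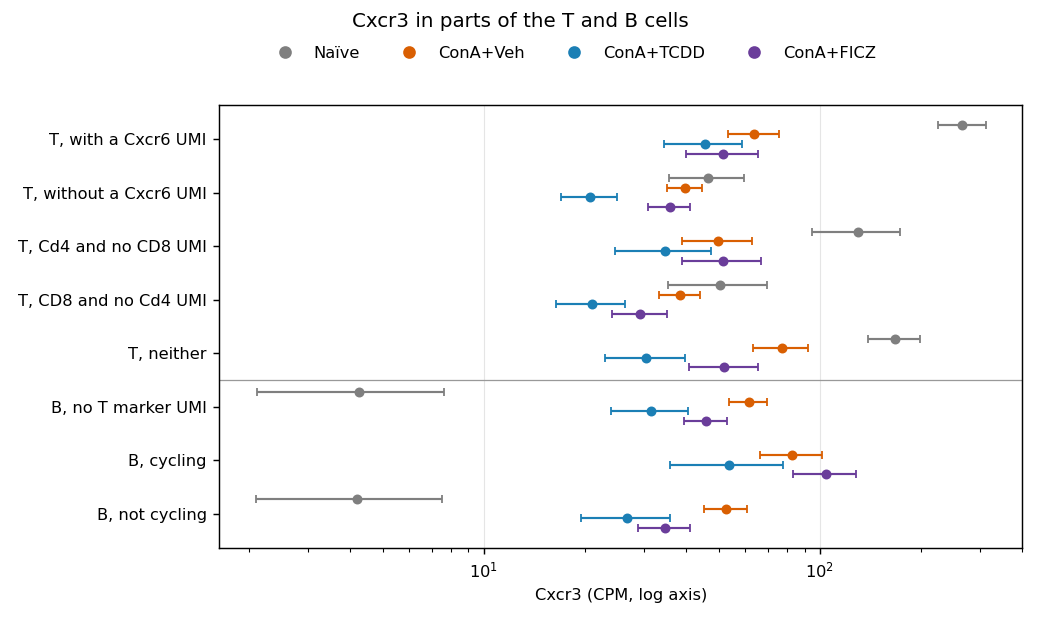
Level of Cxcr3 in CPM (horizontal log axis) in sets of T cells and B cells (vertical axis), coloured by library with exact 95% Poisson intervals; sets with fewer than 20 cells in a library are left out. The Naïve point stands apart at 265.0 CPM in T cells with a Cxcr6 UMI and at 4.25 CPM in B cells without a T marker UMI.

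In B cells Cxcr3 was at 4.48 CPM [2.31, 7.82] in the Naïve library, 59.5 [52.8, 66.9] in ConA+Veh, 33.2 [26.0, 41.8] in ConA+TCDD and 47.9 [41.7, 54.9] in ConA+FICZ. It was found in 7 of 1086 Naïve B cells, 154 of 831, 44 of 414 and 104 of 792. ConA+Veh over Naïve gave a log2 ratio of 3.73 [2.91, 4.70], where 7.58% of the 8861 genes measured were at least 2-fold higher and 18 of them, Cxcr3 included, were as high, with a median of -0.27 over all genes. ConA+TCDD over ConA+Veh gave -0.84 [-1.24, -0.46] and ConA+FICZ over ConA+Veh gave -0.31 [-0.58, -0.05], neither of them 2-fold. With thinned cells the first of the 3 ratios was 4.75 and the last -1.27. After thinning, 0.19% of B cells held a UMI in Naïve, 4.96% in ConA+Veh, 2.65% in ConA+TCDD and 2.12% in ConA+FICZ, and the unthinned shares were 0.645%, 18.5%, 10.6% and 13.1%.

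Cxcr3 in B cells was also followed in those without T cell markers. Among cells with no T marker UMI, Cxcr3 was at 4.25 CPM [2.12, 7.60] in Naïve, 61.3 [53.7, 69.7] in ConA+Veh, 31.4 [23.9, 40.5] in ConA+TCDD and 45.9 [39.5, 53.0] in ConA+FICZ, so the values hardly moved. Cd79a, a part of the B cell receptor, was found in 153 of the 154 ConA+Veh B cells with Cxcr3 and in 96.2% of those without. Cd3e, a part of the T cell receptor complex, was found in 4.55% and 4.14% of them. The cells with Cxcr3 were deeper, with a median of 10734 UMIs against 3754, and such shares depend on depth. By level, Cd79a was at 1812.5 CPM in the cells with Cxcr3 and 2624.3 in those without, and Cd3e at 4.17 and 10.1. Both genes are markers of the gates, so these shares and levels do not show apart from the gate what the cells are. Cycling B cells stood higher, at 82.4 CPM in ConA+Veh, 53.8 in ConA+TCDD and 104.0 in ConA+FICZ, than B cells that were not cycling, at 52.5, 26.7 and 34.5 CPM. In the Naïve library 974 B cells lay in a cluster led by Fcer2a with Cxcr3 at 0.464 CPM. A further 96 lay in the cluster that held most B cells of the ConA libraries, with Cxcr3 at 21.9 CPM [10.5, 40.3], against 60.4 CPM in the 674 ConA+Veh cells of that cluster.

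NK cells held Cxcr3 at 40.5 CPM [19.4, 74.4] in Naïve, 46.6 [33.3, 63.4] in ConA+Veh, 31.8 [19.2, 49.7] in ConA+TCDD and 21.4 [10.7, 38.3] in ConA+FICZ. All 4 intervals overlapped, on 10 to 40 UMIs, although ConA+FICZ was at least 2-fold below ConA+Veh. The log2 ratios were 0.20 [-0.82, 1.37] for ConA+Veh over Naïve, -0.55 [-1.42, 0.27] for ConA+TCDD over ConA+Veh and -1.12 [-2.23, -0.13] for ConA+FICZ over ConA+Veh. With cells thinned to 1000 UMIs the ratio for ConA+TCDD was -2.84, on 1 UMI in 156 cells against 10 in 218 ConA+Veh cells. Thinned to 500 UMIs the levels were 23.5 CPM in ConA+TCDD and 59.3 in ConA+Veh, on 2 and 7 UMIs. Plasmacytoid dendritic cells, 13 to 22 per library, held Cxcr3 at 89.0, 66.8, 68.0 and 143.9 CPM on 5 to 7 UMIs each. Among these 4 classes the order in ConA+Veh was plasmacytoid dendritic cells, B cells, NK cells and T cells, where neighbours overlapped but B and T cells did not. The place of B above T cells depended on depth. With cells thinned to 1000 UMIs, ConA+Veh T cells stood above B cells, at 69.9 against 50.9 CPM, with a UMI in 6.61% against 4.96% of cells. In the Naïve library the order was T cells, plasmacytoid dendritic cells, NK cells and B cells, and only the B cells stood apart from their neighbour.

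The pathway around the 3 genes was followed in lists of 27 genes, 26 of which were in the files, while Cxcl11 was not analysed here. Interferon-gamma, the inducer of both ligands, is made by T and NK cells. Ifng was at 97.5 CPM in T cells of the Naïve library, 28.7 in ConA+Veh, 41.2 in ConA+TCDD and 13.4 in ConA+FICZ, and at 631.5, 248.0, 338.4 and 241.2 CPM in NK cells. At 24 hours its level was thus lower in ConA+Veh than in Naïve cells in both classes, with log2 ratios of -1.76 [-2.04, -1.48] and -1.35 [-1.65, -1.04]. In T cells ConA+FICZ over ConA+Veh gave -1.10 [-1.46, -0.75], where 1.71% of the genes measured were at least 2-fold lower. Ifng held a ratio of 0.52 [0.27, 0.77] for ConA+TCDD over ConA+Veh in T cells and 0.45 [0.16, 0.73] in NK cells.

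Of 8 genes for inducers and signalling (Ifng, Tnf, both chains of the interferon-gamma receptor, Jak1, Jak2, Irf1 and Irf8), all 8 were measured in T cells for ConA+Veh over Naïve, 1 was higher (Irf8) and 2 were lower (Ifng and Tnf), with a median of -0.82, beside 8.88% of all genes measured in T cells that were higher and 14.6% that were lower. In NK cells 6 were measured, 0 were higher and 1 (Ifng) was lower, where 12.1% of the genes measured were at least 2-fold lower. In mononuclear phagocytes 7 were measured and Ifngr1 alone was lower, at -1.56 [-1.89, -1.23], against 11.1% of the genes measured. In endothelial cells 3 were measured and Jak1 alone was lower, at -1.45 [-1.87, -1.04], against 11% of the genes measured that were at least 2-fold lower. In B cells 7 were measured and all lay within 2-fold, with a median of -0.35. For ConA+TCDD over ConA+Veh, the interferon-induced factor Irf1 was the only gene of the list past 2-fold in mononuclear phagocytes, at 1.01 [0.57, 1.43], where 3.09% of the genes measured were at least 2-fold higher.

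On the receptor side (Tbx21, Gnai2, Arrb2, Grk2, Dpp4 and Ackr3), 5 genes were measured in B cells for ConA+Veh over Naïve. Tbx21 was higher, from 6.34 to 15.4 CPM or 1.28 [0.51, 2.14], and Grk2, a kinase that switches such receptors off, was lower at -1.02 [-1.20, -0.85], where 18.0% of the genes measured in B cells were at least 2-fold lower. B cells without a Tbx21 UMI also held Cxcr3, at 2.73 CPM in Naïve and 55.4 in ConA+Veh, and those with one at 44.2 and 84.7 CPM. The Naïve value of 44.2 CPM rested on 5 UMIs in 10 cells, 4 of them in 1 cell. At so low a level of Tbx21, a cell without a UMI need not lack its RNA. In T cells 5 were measured and all lay within 2-fold, Tbx21 at -0.92 [-1.25, -0.59], and in NK cells 4 were measured, of which Tbx21 and Grk2 were lower at -1.23 [-1.79, -0.66] and -1.11 [-1.60, -0.60], beside 12.1% of all genes measured. Of the other CXC receptors in B cells, Cxcr4 and Cxcr5, which hold B cells in bone marrow and follicles, were both lower at -2.38 [-2.57, -2.19] and -1.20 [-1.41, -0.98]. Cxcr3 thus moved against both. In T cells Cxcr6 alone of 3 measured was lower, at -2.69 [-2.89, -2.50], beside 14.6% of all genes measured. For ConA+TCDD over ConA+Veh, Tbx21 in B cells gave 0.52 [-0.03, 1.07], while Cxcr3 gave -0.84 [-1.24, -0.46]. The Tbx21 ratio was -0.38 [-0.67, -0.09] in T cells and 0.37 [-0.15, 0.89] in NK cells.

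Of the other CXC chemokines, Cxcl2, which draws neutrophils, was at 942.4 CPM in mononuclear phagocytes of the Naïve library, 2016.7 in ConA+Veh, 1268.7 in ConA+TCDD and 2769.6 in ConA+FICZ. In neutrophils it was at 17383.9, 10728.7, 10205.1 and 17193.0 CPM. Of 4 other CXC chemokines measured in mononuclear phagocytes for ConA+Veh over Naïve, Cxcl1 and Cxcl2 were higher, beside 10.2% of all genes measured there.

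The genes whose levels followed the members most closely were sought over 27 pairs of class and library with at least 30 cells, by Pearson correlation of log2(CPM + 10) among 11118 genes. For Cxcl9 they were F11r (0.95), Iigp1 (0.94), C1ra (0.93), Palld (0.93) and Cdc42ep4 (0.92). For Cxcl10 they were Ier3 (0.91), Upp1 (0.90), Arrdc4 (0.88), Anxa3 (0.88) and Id1 (0.86). For Cxcr3 they were Cd2 (0.90), Gimap7 (0.89), Gm28935 (0.89), Ablim1 (0.89) and Zcwpw1 (0.88). The pairs share libraries and depth, and with a pseudocount of 1 in place of 10 only 3, 2 and 2 of the 5 genes were the same.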

How the data were processed

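Liver mononuclear cells were profiled in 4 libraries, 1 per group, so no test across samples was possible. The deposited matrices hold UMI counts per gene and cell, which the authors made with Cell Ranger 3.0.2, per the file headers, on the mm10 genome, and they are not normalised. All barcodes of the deposited matrices entered. The members and lists were chosen with earlier results of these data known, and the gate was set after the files were seen.

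Each cell was gated by the number of markers detected. A class needed at least 2 of its markers, hepatocyte and erythroid classes also needed 5% of the cell's UMIs, and a cell whose next class reached 0.67 of the leading one was called mixed and left out. Pairs of related classes were not called mixed and went to the leading class. These were pairs among phagocytes, conventional dendritic cells, neutrophils and granulocyte progenitors, T with NK, B with plasma cells, and conventional with plasmacytoid dendritic cells. An NK-led cell with at least 2 T markers was called a T cell. No doublet caller was run, so doublets were treated only through the mixed class. Summed counts per class were scaled to 1000000 UMIs, with exact 95% Poisson intervals and, for ratios, exact binomial intervals of the 2 sums. Shares of cells were computed after thinning each cell to 1000 UMIs, leaving out shallower cells. Clusters were made with the Leiden method from 2000 variable genes without the members and pathway genes, 30 principal components, 15 neighbours and resolution 1. The ratio and its interval were tested on simulated Poisson counts of whole classes with known folds. Such counts hold no uneven spread over cells. The test therefore cannot show how well the intervals hold where 1 cell has much of a class's UMIs.

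Genes named were the 3 members, 27 genes of 4 pathway lists and the 5 genes most like each member, and cluster genes are the leading ones of their cluster. A further gene of the lists is not reported here. Subsets of T cells, B cells and phagocytes were formed after values had been seen. Alternatives changed the number of markers, the source of classes, the filter on cells, the summary over cells, the thinning and the scaling. Promoters came from the RefSeq table and gene positions from GENCODE vM21. Intervals used scipy 1.17.1, clusters used scanpy 1.11.5, leidenalg 0.10.2, igraph 0.11.9 and scikit-learn 1.9.0, tables used pandas 2.3.3 with numpy 2.4.6, and plots used matplotlib 3.10.9, all under Python 3.11.15.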

Additional observations from a re-analysis of the deposited data

Results flagged for a closer look

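The results below stood out because the same contrast gave counting intervals on opposite sides of 0 in different classes with at least 20 cells in both libraries. The differences between classes were not tested, since each condition has 1 library. Values are log2 ratios of CPM.

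For ConA+Veh over Naïve, Cxcr3 was at 3.73 in B cells and at -1.28 in T cells. In both classes the Naïve cells lay largely in clusters that held few or no ConA+Veh cells.

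For ConA+TCDD over ConA+Veh, Cxcl9 was at 0.68 in mononuclear phagocytes, where 15 of the 37 ConA+TCDD UMIs lay in 1 cell. It was at 1.88 in granulocyte progenitors, on 29 UMIs over both libraries, but at -1.98 in T cells, where 10 of the 21 ConA+Veh UMIs lay in 1 cell. Among classes with fewer cells it was at -0.50 in endothelial cells, -1.41 in stellate cells and 3.11 in conventional dendritic cells.

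For ConA+FICZ over ConA+Veh, Cxcl9 was at 2.25 in B cells, on 22 against 5 UMIs, and at -0.68 in endothelial cells. The B cells of the ConA+FICZ library also held more hepatocyte-marker RNA, at 154.5 CPM against 50.9, and its part in the value was not tested.

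For the same contrast Cxcl10 was at 0.52 in neutrophils, at -2.70 in NK cells, at -0.50 in mononuclear phagocytes and at -0.54 in endothelial cells. In the last class 41.7% of the ConA+FICZ UMIs lay in 1 cell. The NK value depended on the gate. In the NK cluster the levels were 66.8 CPM [51.7, 85.0] in ConA+Veh and 49.4 [34.0, 69.4] in ConA+FICZ, with overlapping intervals.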

How the results depend on the processing

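Of 216 alternative values for 24 log2 ratios, 162 stayed within the counting interval, 43 moved beyond it and 11 turned the sign of a ratio whose interval left out 0, and the causes were not tested except where the alternative itself names what was left out. Leaving out the richest cell of each library, gating on thinned counts, and all alternatives for Cxcr3 in B cells and Cxcl10 in neutrophils were chosen after seeing the data. For ConA+TCDD over ConA+Veh, Cxcl9 in endothelial cells (-0.50) turned to 0.07 with 3 markers per class, 0.73 with classes from clusters, 0.83 as the mean of each cell, 0.70 after thinning and 0.89 with gates on thinned counts, and was -1.16 without the richest cell. Cxcl10 in neutrophils (1.04) turned to -0.52, -0.71, -0.60 and -1.19 with 3 markers, clusters, thinning and gates on thinned counts, and was 0.31 as the mean of each cell and 0.30 without the richest cell. Cxcl10 in endothelial cells for ConA+FICZ over ConA+Veh (-0.54) was 0.04 with 3 markers, -0.12 with clusters and -1.13 without the richest cell, and Cxcr3 in T cells (-0.23) was 0.01 without cells under 200 genes or over 10% mitochondrial UMIs and -0.51 with gates on thinned counts. For ConA+Veh over Naïve, Cxcl9 in phagocytes (-0.00) was 0.84 as the mean of each cell, 0.70 after thinning and 2.91 without the richest cell, and in endothelial cells (1.52) it was 2.29, 2.42 and 2.18 under the same settings. Cxcl10 in phagocytes (2.24) was 3.11 without the richest cell, Cxcr3 in T cells (-1.28) was -1.56 without poor cells and -0.78 as the mean of each cell, and Cxcr3 in B cells (3.73) was 4.72 as the mean of each cell and 4.75 after thinning. For ConA+TCDD over ConA+Veh, Cxcl9 in phagocytes (0.68) was 0.05 after thinning, and Cxcl10 in phagocytes (0.14) was 0.57 with 3 markers, 0.42 after thinning, -0.44 without the richest cell and -0.59 with gates on thinned counts. Cxcl10 in endothelial cells (1.70) was 2.03 with clusters, Cxcr3 in T cells (-0.84) was -1.28 after thinning, in B cells (-0.84) -0.43 with gates on thinned counts, and in NK cells (-0.55) -1.47 as the mean of each cell, -2.84 after thinning and -2.14 with gates on thinned counts. The value of -2.84 in NK cells rested on 1 ConA+TCDD UMI. For ConA+FICZ over ConA+Veh, Cxcl9 in phagocytes (-0.33) was -1.19 as the mean of each cell and -1.65 after thinning, and Cxcl10 there (-0.50) was -0.35 and -0.29. Cxcl9 in endothelial cells (-0.68) was -0.10 with 3 markers, -0.18 with clusters, -0.06 as the mean of each cell, -0.16 after thinning and -0.14 with gates on thinned counts. Cxcr3 in B cells (-0.31) was -0.97 as the mean of each cell and -1.27 after thinning, and Cxcl10 in neutrophils (0.52) was 0.20, 0.24, 1.02 without the richest cell and 0.84 with gates on thinned counts. Of the shares of UMIs, 27 stayed and 9 moved. With 3 markers, endothelial cells held 64.3% of Cxcl9 in ConA+Veh and 25.7% in ConA+TCDD, while with clusters they held 75.1% after vehicle, 52.4% after TCDD and 44.4% after FICZ. With clusters, phagocytes held 46.3% of Cxcl10 in ConA+Veh and 13.8% in ConA+TCDD, which was 18.3% with 3 markers, and T cells held 87.9% of Naïve Cxcr3 with clusters. Of the shares of cells with a UMI, 11 stayed and 13 moved, since they follow depth. At 500 UMIs, 7.14% of Naïve and 47.8% of ConA+Veh endothelial cells held Cxcl9, 13% of ConA+Veh and 10.8% of ConA+FICZ phagocytes held Cxcl10, and 6.32% of Naïve, 4.08% of ConA+Veh and 2.28% of ConA+FICZ T cells held Cxcr3. Without thinning, the phagocyte shares were 37.8% and 32.1%, and the T cell shares were 21.5%, 29.9%, 16.1% and 25.1%. No paired analysis was possible because each condition has 1 library. Few cells in a class, such as the 9 endothelial cells of ConA+TCDD, and 1 library per condition both limit the precision.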

Other observations

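Over whole libraries, without regard to class, Cxcl9 was at 25.4 CPM in Naïve, 51.0 in ConA+Veh, 24.2 in ConA+TCDD and 60.0 in ConA+FICZ, while Cxcl10 was at 26.2, 118.8, 138.1 and 116.1 CPM. Cxcr3 was at 44.4, 39.2, 22.2 and 32.6 CPM. These sums move with the number of cells captured from each class.

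Within a cluster of ConA T cells led by Gm26917 and Kcnq1ot1, Cxcr3 was at 154.4 CPM in ConA+Veh (176 cells), 100.4 in ConA+TCDD (107 cells) and 99.6 in ConA+FICZ (31 cells). The 3 ConA+TCDD cells gated as conventional dendritic cells held Cxcl9 at 472.1 CPM.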
